A study of Homo sapiens with 6 samples.

Results

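The genes described here belong to peptide presentation by MHC class I, together with CD274, which encodes the checkpoint ligand PD-L1. They were taken by Ensembl identifier from a list of 9 symbols, and 8 of them had a row among the 39168 identifiers of the deposited tables. They were the heavy chains HLA-B, HLA-C and HLA-E, the light chain B2M, the peptide transporter subunit TAP1, the loading factor TAPBP, the transactivator NLRC5, and CD274. TAP2, the other transporter subunit, had no row of its own. CAL62 is an anaplastic thyroid carcinoma cell line, and its label gives the genotype as WT. The cells received either 50 nM erianin, a bibenzyl from Dendrobium, or an equal concentration of DMSO, for 48 h in both groups. Each group held 3 RNA-seq libraries, described as replicate experiments with no further detail on separate cultures, so p-values measure the spread between these libraries.

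MHC class I molecules show peptides from inside the cell to CD8+ T cells. The proteasome makes the peptides, the TAP transporter carries them into the endoplasmic reticulum, and tapasin helps load them onto a heavy chain paired with beta-2-microglobulin. Interferon gamma raises many of these genes, in part through IRF1, NLRC5 drives the class I promoters through the SXY module, and PD-L1 binds PD-1 on T cells and restrains them.

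The promoters are shown because the elements named above can be looked up in them. RefSeq promoters of GRCh38.p14 were found for 7 of the 9 listed genes, and HLA-E and NLRC5 were not among them. The search covered the 250 bases before each start on both strands. It used the interferon-stimulated response element core GAAANNGAA, the gamma-activated site TTCNNNGAA, the Y box CCAAT, the X2 box core TGACG and an NF-kB motif, GGGANTTTC. These occurred in 6.88%, 6.57%, 32.0%, 21.2% and 1.12% of 35116 promoters. Below are the stretches upstream of the transcribed part for a pair of heavy chains, the light chain and CD274, written 5′ to 3′ on the strand of the gene, with motif matches in capitals. They lie at chr6:31357189-31357429 (minus strand), chr6:31272131-31272342 (minus strand), chr15:44711267-44711486 (plus strand) and chr9:5450292-5450502 (plus strand), in the order shown.
HLA-B: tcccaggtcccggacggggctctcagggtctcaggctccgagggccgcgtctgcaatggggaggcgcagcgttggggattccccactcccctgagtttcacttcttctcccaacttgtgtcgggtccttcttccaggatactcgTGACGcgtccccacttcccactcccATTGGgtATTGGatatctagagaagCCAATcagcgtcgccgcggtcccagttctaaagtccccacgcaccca
HLA-C: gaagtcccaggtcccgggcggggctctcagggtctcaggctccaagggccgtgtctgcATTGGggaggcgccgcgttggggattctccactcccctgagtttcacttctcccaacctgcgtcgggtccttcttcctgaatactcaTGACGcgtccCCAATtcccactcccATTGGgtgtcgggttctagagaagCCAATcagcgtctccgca
B2M: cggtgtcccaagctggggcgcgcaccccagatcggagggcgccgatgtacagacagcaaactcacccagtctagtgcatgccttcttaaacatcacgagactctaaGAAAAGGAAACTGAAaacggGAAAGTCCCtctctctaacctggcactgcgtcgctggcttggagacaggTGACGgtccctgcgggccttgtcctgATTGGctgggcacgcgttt
CD274: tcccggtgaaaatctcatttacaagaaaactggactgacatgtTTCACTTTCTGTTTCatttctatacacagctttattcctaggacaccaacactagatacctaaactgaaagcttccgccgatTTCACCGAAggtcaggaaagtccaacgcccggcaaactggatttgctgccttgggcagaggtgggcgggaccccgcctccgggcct

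The HLA-B and HLA-C stretches held the X2 core TGACG at -106 and -105 from the start, followed downstream by Y boxes in either orientation, and HLA-C held a further Y box upstream at -192. B2M held the X2 core at -75 and a Y box at -49, plus an overlapping pair of interferon-stimulated cores and an NF-kB match. CD274 held an overlapping pair of interferon-stimulated cores beginning at -207 and a gamma-activated site at -125, and neither an X2 core nor a Y box. TAP1, which has 2 RefSeq starts, and TAPBP each held 2 interferon-stimulated cores at one start, overlapping in each case. HLA-B and HLA-C had no match to the interferon-stimulated core or the NF-kB motif. Only the spellings given were searched, so a stretch without a match can still hold a variant of an element. A match is a string of letters in this window and not a measured binding site.

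Before the results, 1 library stood apart. Counts assigned to genes ran from 25776301 to 34107727 per library. DMSO replicate 3 lay 52.5 and 52.8 log2 CPM units (Euclidean distance over tested genes) from the other DMSO libraries. Those lay 23.2 from each other, and the erianin libraries were 20 to 20.6 apart. Between groups, DMSO replicates 1 and 2 lay 46.1 to 47.2 from the erianin libraries, and DMSO replicate 3 lay 53.7 to 54.9 from them. DMSO replicate 3 was thus further from the other DMSO libraries than those were from the erianin libraries. Values without this library are given beside the results. Thyroid and epithelial markers fitted the label in part. PAX8, KRT8, KRT18 and VIM were abundant, whereas TSHR and NKX2-1 were at 0 in all 6 libraries. Markers of leukocytes and vessels summed to 6.46 to 9.58 TPM with DMSO and 10.9 to 12.1 TPM with erianin, nearly all of it ITGAX and CD14, with MS4A1 at 0 throughout and between 4 and 8 of 12 markers at 0 per library. Their part in the results was not tested. In bulk RNA, fewer cells of a type and less RNA per cell cannot be told apart.

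Of the 8 genes, CD274 and HLA-B had the largest log2 fold changes with all 6 libraries, and CD274 alone passed the adjusted test. HLA-B stood above CD274 with the GC trend removed, or without DMSO replicate 1 or 2, and both were at 0.68 in limma on log2(TPM + 1). Values are given as CPM, the count scaled to the TMM-adjusted library total. CD274 averaged 78.7 ± 1.06 CPM with DMSO and 111 ± 6.09 CPM with erianin (SD, n = 3 each), a 1.41-fold higher level. HLA-B averaged 136 ± 37.7 CPM against 185 ± 3.91 CPM, 1.36-fold higher, without passing the adjusted test. B2M, HLA-C, HLA-E, TAP1 and NLRC5 had overlapping groups, and TAPBP was the only 1 of the 8 whose erianin libraries all lay below DMSO. Differentially expressed genes (DEGs) required a Benjamini-Hochberg adjusted p under 0.05 and a log2 fold change over 0.5 in size, by edgeR's quasi-likelihood test. With those thresholds 0 of the 8 genes were called, against 8.73% of the 12821 genes tested (5.37% higher and 3.36% lower). At an unadjusted p under 0.05 there were 3 (CD274, HLA-B and TAPBP), against 30.9% of all genes. DESeq2 also called 0, against 10.8% of all genes, and limma on TPM called 1 (CD274), against 10.2%. In limma on log2(TPM + 1) the median log2 fold change of all tested genes was 0.175, so values on TPM are to be read beside it. With the adjusted p alone edgeR passed 1 gene, CD274, against 14.9% of all genes (7.22% higher and 7.69% lower). The groups did not overlap for 3 of 8 genes, against 38.7% of all genes. The median log2 fold change of the 8 was 0.08, beside 0.00 for all tested genes, with 6 positive and 2 negative values.

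**Figure D1:**
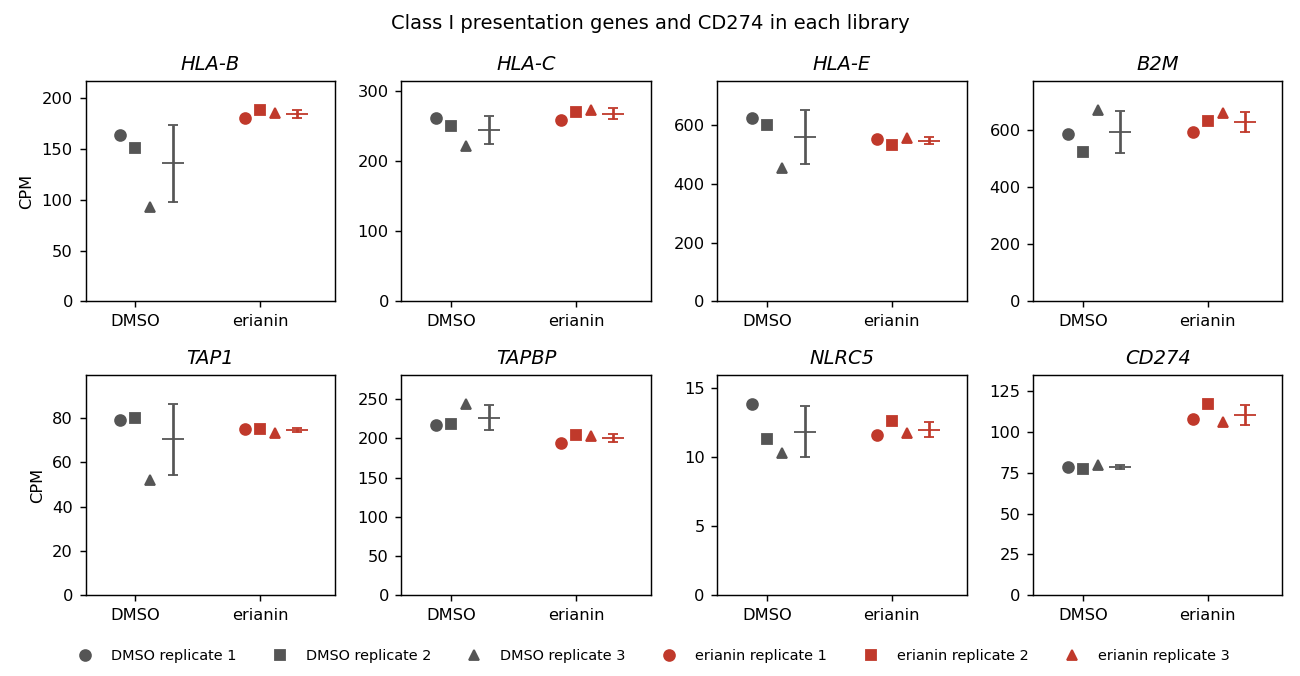
CPM (y axis, from 0) of the 8 genes in each library, 1 panel a gene, grey for DMSO and red for erianin, with markers for the replicate and a bar for the mean ± SD. CD274 is higher in all 3 erianin libraries, and DMSO replicate 3 is the lowest of 6 for HLA-B, HLA-C, HLA-E, TAP1 and NLRC5.

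CD274 encodes PD-L1, on chromosome 9 (GRCh38 chr9:5450503-5470566, plus strand, ENSG00000120217). It was measured at 78.9, 77.6 and 79.7 CPM in DMSO replicates 1 to 3 and at 108, 118 and 106 CPM in the erianin replicates. All 3 erianin libraries lay above all 3 DMSO libraries, as for 19.5% of all tested genes. The log2 fold change was 0.49 (SE 0.07, 95% interval 0.32 to 0.66, edgeR adjusted p = 0.00725), which fell short of the 0.5 threshold. DMSO replicate 3 lay close to the other DMSO libraries for this gene, at 1.02 times their mean, and without it the value was 0.50 with an adjusted p of 8.24e-10. Leaving out erianin replicate 1 or 2 ended the adjusted call, with edgeR adjusted p-values of 0.0525 and 0.0559, and leaving out erianin replicate 3 took the gene past both thresholds (0.52, adjusted p = 0.0478). After a trend on GC content was removed the log2 fold change was 0.38 (edgeR adjusted p = 0.0267), and with DMSO replicate 3 also left out it was 0.29 (adjusted p = 1.45e-05).

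HLA-B, a classical heavy chain, lies on chromosome 6 at chr6:31269491-31357188 (minus strand, ENSG00000234745), in a gene model that overlaps HLA-C by 2640 bases on the same strand. The DMSO libraries gave 164, 151 and 92.9 CPM and the erianin libraries 181, 189 and 185 CPM. The erianin libraries were all higher, but DMSO replicate 3 stood at 0.591 times the mean of the other DMSO libraries. The log2 fold change was 0.44 (SE 0.19, interval 0.00 to 0.89) with an edgeR adjusted p of 0.161. Without DMSO replicate 3 it was 0.23 with an adjusted p of 5.35e-05. After a trend on GC content was removed it was 0.56 with an adjusted p of 0.0203, past both thresholds.

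HLA-C, the other classical heavy chain measured here (chr6:31268749-31272130, minus strand, ENSG00000204525), gave 262, 251 and 223 CPM with DMSO and 259, 271 and 274 CPM with erianin. The groups overlapped. Its log2 fold change was 0.13 (interval -0.06 to 0.32, edgeR adjusted p = 0.32) and 0.06 without DMSO replicate 3. With GC content corrected and that library left out it was 0.29 with an adjusted p of 1.08e-06.

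HLA-E, the non-classical chain that NK cells read through NKG2A (chr6:30489467-30494205, plus strand, ENSG00000204592), was at 626, 601 and 454 CPM with DMSO and 554, 534 and 555 CPM with erianin. DMSO replicates 1 and 2 were above, and replicate 3 below, all erianin libraries. The log2 fold change was -0.03 (interval -0.32 to 0.25, edgeR adjusted p = 0.889). Without DMSO replicate 3 it was -0.17 with an adjusted p of 0.000583, and the sign turned under several other settings.

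B2M, the light chain common to all these heavy chains (chr15:44711487-44718877, plus strand, ENSG00000166710), gave 586, 523 and 672 CPM with DMSO and 594, 634 and 662 CPM with erianin. Here DMSO replicate 3 was the highest of 6 libraries rather than the lowest. The log2 fold change was 0.09 (interval -0.16 to 0.33, edgeR adjusted p = 0.629), and 0.18 with an adjusted p of 0.00145 without that library. The sign turned with GC content corrected, at -0.02. B2M was AT-rich beside the heavy chains, with a GC content of 40.6% against 54.8% to 62.7%.

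TAP1, which pumps peptides into the endoplasmic reticulum (chr6:32845209-32853978, minus strand, ENSG00000168394), gave 79.2, 80.1 and 51.9 CPM with DMSO and 75, 75.1 and 73.3 CPM with erianin. Only DMSO replicate 3 lay below the erianin range. The log2 fold change was 0.08 (interval -0.29 to 0.46, edgeR adjusted p = 0.785) and -0.10 without that library (adjusted p = 0.083). The model of PSMB9 on the opposite strand spans 8770 bases of TAP1, and the strand setting of the counting is not given in the sources used here. For TAP2, 79.8% of its windows of 100 bases also occur in the gene model ENSG00000250264, which covers it on the same strand. That model, chosen after its values were seen, gave 26.5, 25.4 and 31.9 CPM with DMSO and 25.2, 29.5 and 24.1 CPM with erianin. The groups overlapped (edgeR adjusted p = 0.69), and no value of TAP2 was drawn from it.

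TAPBP, which encodes tapasin (chr6:33299694-33314387, minus strand, ENSG00000231925), gave 217, 218 and 244 CPM with DMSO and 195, 204 and 203 CPM with erianin. Every erianin library was lower, as for 19.3% of all genes. The log2 fold change was -0.17 (SE 0.07, interval -0.35 to -0.0017), the unadjusted p from edgeR was 0.0483 and the adjusted p 0.158. Without DMSO replicate 3 it was -0.12 with an adjusted p of 0.0142. On TPM the sign was positive at 0.02, below the median of 0.175 for all genes on that scale.

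NLRC5, the transactivator of class I genes (chr16:56989485-57083531, plus strand, ENSG00000140853), was the scarcest gene, with 321 to 441 counts a library. It gave 13.9, 11.3 and 10.3 CPM with DMSO and 11.6, 12.6 and 11.7 CPM with erianin. The groups overlapped, and the log2 fold change was 0.02 (interval -0.29 to 0.34, edgeR adjusted p = 0.937) and -0.07 without DMSO replicate 3.

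**Figure D2:**
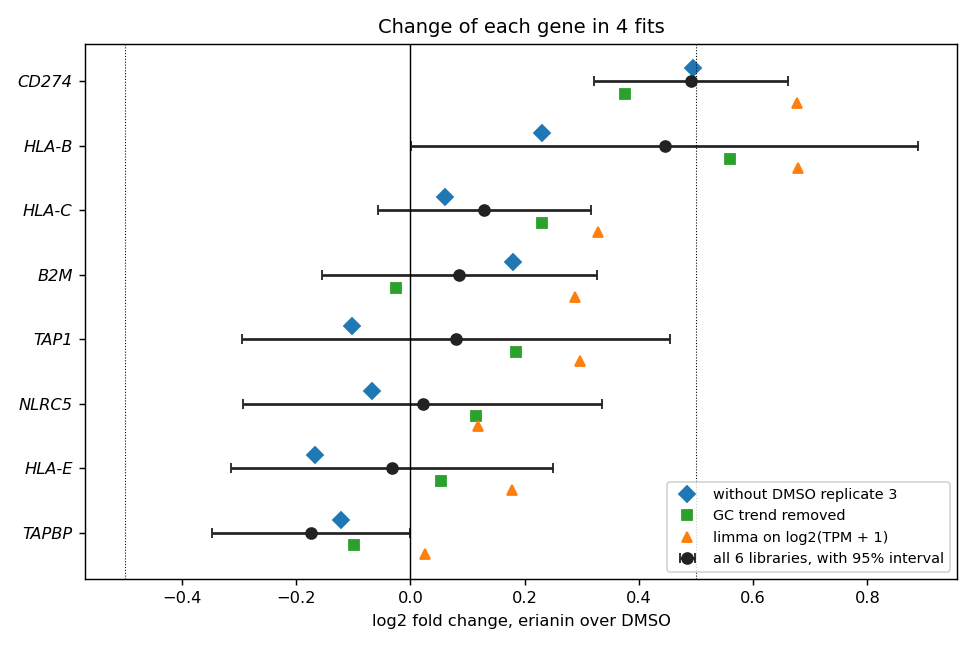
Log2 fold change (x axis, erianin over DMSO) of each gene in 4 fits, with the 95% interval for the fit on all 6 libraries and dotted lines at the 0.5 threshold. CD274, HLA-B and HLA-C stay above 0 in every fit shown, while HLA-E, TAP1, TAPBP, NLRC5 and B2M lie near 0 or change side. CD274 is at 0.49 with all libraries, 0.50 without DMSO replicate 3 and 0.38 with the GC trend removed. Without DMSO replicate 3, HLA-B is at 0.23 and HLA-C at 0.06.

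DMSO replicate 3 was the lowest of the 6 libraries for 5 of these genes and the highest for 2, against 29% and 29.7% of all genes. Leaving it out, 5 of the 8 genes had an adjusted p under 0.05, against 55.2% of 13053 genes. CD274, HLA-B and B2M were higher with erianin (background 27.5%), and HLA-E and TAPBP lower (background 27.7%). With the fold threshold added edgeR called 0 of 8, against 11.4% of all genes higher and 6.11% lower.

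Per gene length the heavy and light chains stood far above the transactivator. Mean TPM with DMSO was 783 for HLA-E, 244 for B2M, 118 for HLA-C, 96.3 for HLA-B, 92.6 for TAPBP, 53.0 for CD274, 34.8 for TAP1 and 1.10 for NLRC5. In the DMSO libraries the range of HLA-B (61.5 to 118 TPM) took in TAPBP and overlapped HLA-C, while every other pair of neighbours in this order was separate. HLA-E lay above 99.1% of tested genes in TPM and NLRC5 above 14.1%. The order of the top genes depends on the length used. With CPM per kilobase of the longest principal transcript in place of TPM, B2M stood first at 348 and HLA-E second at 216. The alleles of CAL62 were not analysed here, and 0.278% of the 100-base windows of HLA-C and 0.6% of those of HLA-E occur in another gene.

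**Figure D3:**
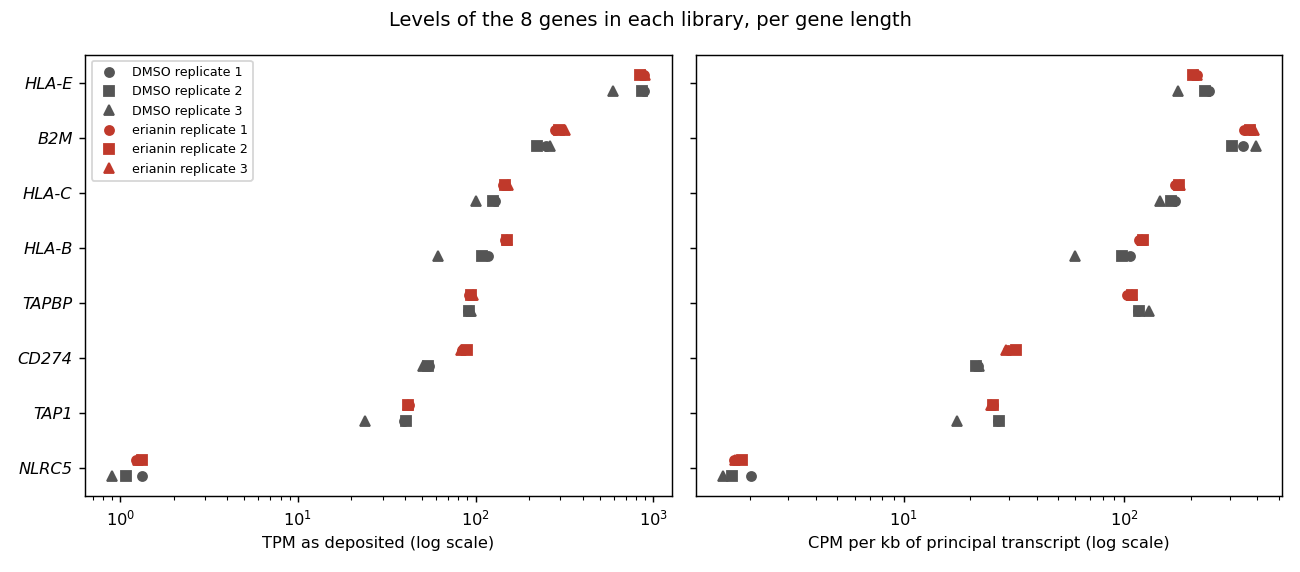
Level of the 8 genes in each library as deposited TPM (left) and as CPM per kilobase of principal transcript (right), both on log axes, grey for DMSO and red for erianin. HLA-E leads in TPM (783 on average with DMSO) and B2M leads per principal transcript (348), while NLRC5 is lowest on both.

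Ratios within a library do not depend on the library total. B2M over the summed heavy chains, in TPM, was 0.218, 0.203 and 0.345 with DMSO and 0.240, 0.260 and 0.264 with erianin. The groups overlapped, with a log2 difference of 0.04 (exact permutation p = 1, two-sided), and 0.28 without DMSO replicate 3. CD274 over the heavy chains was 0.0478, 0.0492 and 0.0668 with DMSO and 0.0714, 0.0788 and 0.0691 with erianin. Every erianin ratio was higher, by 0.44 on the log2 scale, and the exact permutation p was 0.1, the smallest that 3 against 3 allows, and 0.2 when adjusted over both ratios. Without DMSO replicate 3 the log2 difference was 0.59.

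The surrounding pathway was read from 14 further lists of 137 genes, of which 102 were tested, 7 called higher and 3 lower. These 10 calls stand beside 8.73% of all genes called. Without DMSO replicate 3 there were 13 calls, beside 17.5% of all genes. In the peptide loading list 1 of 9 tested genes rose, the chaperone HSPA5, from 996 ± 29.4 to 3311 ± 114 CPM (n = 3 each), a log2 fold change of 1.73 (edgeR adjusted p = 0.000129) and 1.75 without DMSO replicate 3. HSPA5 encodes BiP, a general chaperone of the endoplasmic reticulum. CALR and CANX, which hold heavy chains during folding, had log2 fold changes of 0.21 and 0.25 with edgeR adjusted p-values of 0.0972 and 0.225. Without DMSO replicate 3 they were 0.25 and 0.41, with edgeR adjusted p-values of 3.06e-06 and 3.47e-10. In the immunoproteasome list 0 of 6 tested genes were called by edgeR (median log2 fold change -0.02). PSMB8, a catalytic subunit, was at 86.6, 86.4 and 50.1 CPM with DMSO and 78.1, 68.9 and 79.3 CPM with erianin. DMSO replicate 3 was its lowest library, and its log2 fold change went from 0.02 to -0.20 without that library. PSMB9, its neighbour, gave 40.6, 35.2 and 17.4 CPM against 43.8, 40.5 and 40.3 CPM (log2 fold change 0.42, edgeR adjusted p = 0.344), and 0.13 without DMSO replicate 3. Among the other class I heavy chains 0 of 5 tested genes were called, and among 3 constitutive catalytic proteasome subunits 0.

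Upstream, the interferon receptor and signalling list had 1 of 16 tested genes called. SOCS1, the inhibitor of JAK signalling, rose from 0.974 ± 0.0858 to 2.53 ± 0.097 CPM (log2 fold change 1.38, edgeR adjusted p = 0.00504, and 1.32 without DMSO replicate 3). STAT3, a transducer of cytokine signals, passed the adjusted test under the fold threshold, with a log2 fold change of 0.29 (edgeR adjusted p = 0.0286) and 0.30 without DMSO replicate 3. That pass was lost without any 1 of the other libraries (edgeR adjusted p from 0.0865 to 0.139). IRF1, a factor that binds class I promoters and was chosen after its value was seen, gave 0.32 with an adjusted p of 0.0702, and 0.25 with 0.00607 without DMSO replicate 3. The median of the list was 0.05. Of 8 tested interferon gamma response genes edgeR called 0, with a median of -0.05. ICAM1, an adhesion receptor, had a log2 fold change of -0.26 (edgeR adjusted p = 0.0337) and -0.27 without DMSO replicate 3. Its adjusted pass was lost without any 1 of the other libraries (edgeR adjusted p from 0.0865 to 0.169), and with GC content corrected and DMSO replicate 3 left out it was -0.10. Of the 9 transcription factors of class I and class II genes 1 fell. RFXANK, a subunit of the RFX complex that binds X boxes, went from 72.7 to 51.2 CPM (log2 fold change -0.51, edgeR adjusted p = 0.0149). That call was lost without DMSO replicate 3 (log2 fold change -0.45) and without erianin replicate 1, 2 or 3 (edgeR adjusted p 0.0554, 0.0854 and 0.087). It was also lost with upper-quartile factors (-0.45), a stricter count filter (-0.50), the limma fits on TPM (-0.30 to -0.31) and the GC trend removed (-0.43), and was -0.24 with the latter and DMSO replicate 3 left out.

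Of 8 other checkpoint ligands tested, 1 was called higher and 1 lower, with a median log2 fold change of -0.03. PDCD1LG2, which encodes PD-L2 and lies beside CD274, gave 8.46, 9.06 and 13.1 CPM with DMSO and 9.02, 8.59 and 8.91 CPM with erianin. Its log2 fold change was -0.21 (edgeR adjusted p = 0.472), 0.01 without DMSO replicate 3 and 0.02 on TPM. CD276, or B7-H3, gave -0.12, and 0.08 on TPM, with an adjusted p of 0.00875 at -0.13 without DMSO replicate 3. On TPM both PDCD1LG2 and CD276 lay below the median of all genes, 0.175. NT5E, the ectoenzyme CD73, fell from 341 ± 75.5 to 214 ± 3.12 CPM (log2 fold change -0.67, edgeR adjusted p = 0.0225), and by 0.48, under the threshold, without DMSO replicate 3. Its adjusted p was 0.0988, 0.102 and 0.0988 without erianin replicate 1, 2 or 3. VSIR, which encodes VISTA, rose from 0.78 to 1.91 CPM (log2 fold change 1.32, edgeR adjusted p = 0.0303, and 1.09 without DMSO replicate 3), a call lost without DMSO replicate 2 (adjusted p = 0.0953) and without erianin replicate 1, 2 or 3 (0.109, 0.093 and 0.132). Among 9 partners of the PD-L1 protein 0 passed both thresholds in edgeR, with a median log2 fold change of -0.10, 4 higher and 5 lower. CMTM6, which keeps PD-L1 at the membrane and was chosen after its values were seen, averaged 48.3 CPM with DMSO and 66.9 CPM with erianin (log2 fold change 0.47, edgeR adjusted p = 0.0189), and 0.41 without DMSO replicate 3 (adjusted p = 1.06e-06). It passed both thresholds without DMSO replicate 1 (0.51, adjusted p = 0.0464) and lost the adjusted pass without DMSO replicate 2 (0.0574) or erianin replicate 1, 2 or 3 (0.0642, 0.1 and 0.0981). With the GC trend removed and DMSO replicate 3 left out, the value for CMTM6 was 0.16. CMTM4, a further partner chosen after its values were seen, had a log2 fold change of -0.16 (edgeR adjusted p = 0.512). Without DMSO replicate 3 CMTM4 was at -0.33 (edgeR adjusted p = 5.46e-06). Of 7 tested genes near CD274 on chromosome 9, 0 were called, with a median of 0.07.

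Among ligands of the NK receptor NKG2D, MICB and RAET1E rose. MICB went from 19.2 ± 1.45 to 34.5 ± 2.85 CPM (log2 fold change 0.85, edgeR adjusted p = 0.00463, and 0.89 without DMSO replicate 3). RAET1E went from 0.429 to 1.5 CPM (log2 fold change 1.79, edgeR adjusted p = 0.0155, and 1.65 without DMSO replicate 3), and its call was lost without DMSO replicate 1 (0.053) and without erianin replicate 1 or 3 (0.0734 and 0.0764). MICA gave 0.30 with an edgeR adjusted p of 0.0488, under the fold threshold, and 0.27 without DMSO replicate 3. It lost the adjusted pass without any 1 of the other libraries (edgeR adjusted p from 0.105 to 0.202). ULBP1, a further NKG2D ligand chosen after its values were seen, was lower in every erianin library, with a log2 fold change of -0.44 (edgeR adjusted p = 0.166) and -0.24 without DMSO replicate 3. With the GC trend removed ULBP1 passed both thresholds (-0.51, edgeR adjusted p = 0.0489). In all 2 of 10 tested NK ligands were called, with a median of 0.31. In the class II list 2 of 4 tested genes were called. CTSS, a protease that trims the invariant chain, went from 4.87 to 8.36 CPM (log2 fold change 0.78, edgeR adjusted p = 0.00793, and 0.74 without DMSO replicate 3). With GC content corrected as well it was 0.50. CD74, the invariant chain, went from 2.68 to 4.35 CPM (log2 fold change 0.70, edgeR adjusted p = 0.0276, and 0.71 without DMSO replicate 3). CTSS lost its call without erianin replicate 2 or 3 (0.0578 and 0.0573), and CD74 without any of DMSO replicate 1 or 2 and erianin replicate 1, 2 or 3 (0.0671, 0.0892, 0.128, 0.0641 and 0.122). HLA-DPB1 gave 14.3 CPM with DMSO and 15.9 CPM with erianin (edgeR adjusted p = 0.443), and HLA-DRA had at most 4 counts in any library. In the marker list PAX8 fell from 676 to 428 CPM (log2 fold change -0.66, edgeR adjusted p = 0.00403). PAX8 stayed past both thresholds without each library in turn (-0.59 without DMSO replicate 3), but was -0.45 on TPM and -0.42 with GC content corrected and DMSO replicate 3 left out, both under the fold threshold. VIM gave -0.47 with an adjusted p of 0.03, under the fold threshold, and -0.34 without DMSO replicate 3. It passed both thresholds without DMSO replicate 2 (-0.55, edgeR adjusted p = 0.0406) and lost the adjusted pass without DMSO replicate 1 (0.0551) or erianin replicate 1, 2 or 3 (0.12, 0.113 and 0.131).

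**Figure D4:**
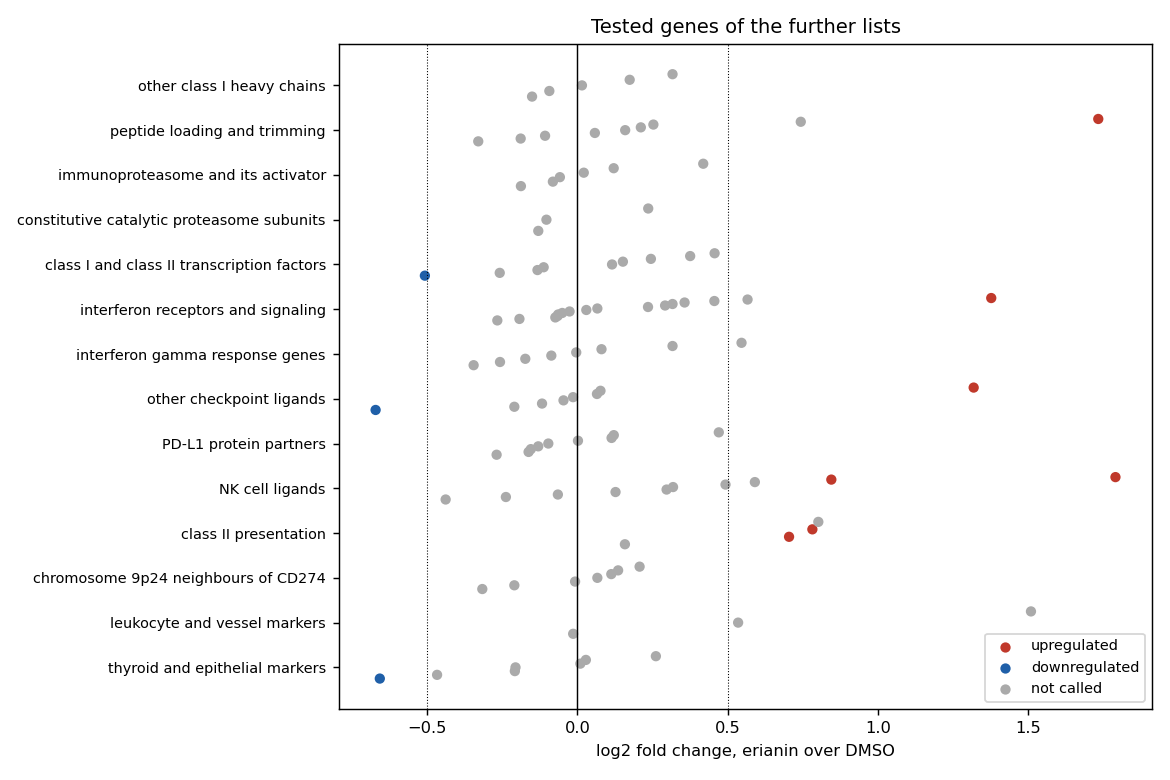
Log2 fold change (x axis, erianin over DMSO) of each tested gene of the 14 further lists, 1 row a list, red for upregulated, blue for downregulated and grey for not called, with dotted lines at the 0.5 threshold. HSPA5 at 1.73 is the red point of the peptide loading row, and most genes of the other rows lie grey near 0.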

How the data were processed

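Counts and TPM were deposited by the authors as tables of 6 columns, all of which were mapped to the 6 libraries. The submitters' processing notes name fastp 0.23.2, STAR 2.7.10, featureCounts 2.0.1, StringTie 2.2.1 and GRCh38, with no roles. The annotation and strand setting are not given in the sources used here. The authors' raw counts were used for the tests, and the authors' TPM for levels per length. TPM columns summed to 73.5%, 72.6% and 59.1% of the nominal TPM total in DMSO replicates 1 to 3. In erianin replicates 1 to 3 they summed to 77.2%, 75.1% and 78.3%. Rows naming no gene (26480) held between 0.00385% and 0.00515% of counts and were left out.

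Differential expression used edgeR 4.0.16 (R 4.3.3) with TMM factors, filterByExpr and the quasi-likelihood test on all 6 libraries, and p-values were adjusted by Benjamini-Hochberg over 12821 genes. DESeq2 1.42.0, limma 3.58.1 on log2(TPM + 1), a GC offset on 12686 genes and leave-one-out fits were alternatives. On simulated counts of 12781 genes with 200 changed, edgeR recovered 200 and called 3 unchanged genes. DESeq2 recovered 198 and called 1, and limma, which tested 11859 genes, recovered 193 and called 21. Recovery counted calls past the fold threshold, so it does not measure power for changes below it, such as those of the members. The simulated libraries all had the same spread and none was set apart, unlike the libraries here. In edgeR the biological coefficient of variation, a measure of spread between libraries, was 0.139 with all 6 libraries. It was 0.0421 without DMSO replicate 3. Recovery under a spread of that kind was not tested. Scripts ran in Python 3.11.15 with pandas 2.3.3 and scipy 1.17.1. Replicate numbers did not pair libraries, with correlations of deviations of -0.00664, 0.00767 and -0.0494. The members and lists were chosen with earlier results of these data known. Genes were named when listed as members, when called in their list, or when among the 3 most abundant uncalled, and some genes so selected are not reported here. A TAP1 to TAP2 ratio was not run since TAP2 had no row. Genes beside a member (PSMB8, PSMB9 and PDCD1LG2) were named whatever their values. IRF1, CMTM6, CMTM4, ULBP1 and HLA-DRA were named after their values were seen. CPM divides counts by the TMM-scaled library total. Levels per principal transcript and the GC offset without DMSO replicate 3 were added after seeing the data.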

Additional observations from a re-analysis of the deposited data

How the results depend on the processing

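Of 160 member values under alternatives, 132 kept direction and side of the threshold, 8 passed the threshold and 20 changed sign. With 0 of the 8 genes called in the main fit, none could fall below the threshold. Settings that only moved the fold threshold reused the main estimates, so they could not change a sign. The cause of the sign changes was not tested. Calls among the 8 genes numbered 1 with upper-quartile factors, with each limma fit on TPM and with no fold threshold (1, CD274, in each), 1 with the GC offset and 1 with the GC offset and replicate block (HLA-B), and 0 to 1 over leave-one-out, the 1 being CD274 without erianin replicate 3. The median of all genes shifted by 0.175 on the log2 scale in TPM, and the limma values below stand beside it.

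Against 1119 DEGs there were 665 with the replicate block, 1912 with no fold threshold, 352 over a log2 fold change of 1 and 309 to 2282 over leave-one-out (309 without erianin replicate 3, 2282 without DMSO replicate 3). The further lists gave 10 calls, 6 with the replicate block, 16 with no fold threshold, 4 over a log2 fold change of 1 and 4 to 13 over leave-one-out. The block took replicate numbers that did not pair the libraries. It ended the calls of RFXANK, CD74, RAET1E and VSIR among the named genes.

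Sign changes were as follows. HLA-E was 0.0217 with upper-quartile factors, 0.1785, 0.1787 and 0.1785 in the limma fits, 0.0537 with the GC offset, 0.0582 with the block added, and -0.1675 to 0.0488 over leave-one-out. B2M was -0.0246 with the GC offset, -0.0243 with the block added, -0.0318 with the GC offset without DMSO replicate 3, and -0.0027 to 0.1801 over leave-one-out. TAPBP was 0.0249, 0.0251 and 0.0249 in the limma fits and 0.0532 with the GC offset without DMSO replicate 3. TAP1 ranged from -0.1029 to 0.1803 and NLRC5 from -0.0672 to 0.1431 over leave-one-out. PSMB8 ranged from -0.2019 to 0.1398 and was -0.0749 with the GC offset without DMSO replicate 3. PDCD1LG2 was 0.0164, 0.0176 and 0.0164 in the limma fits and -0.3305 to 0.0051 over leave-one-out. CD276 was 0.0782, 0.0801 and 0.0782 in the limma fits and 0.0766 with the GC offset without DMSO replicate 3. The B2M ratio was -0.0099 in CPM and -0.1064 to 0.2751 over leave-one-out, and the CD274 ratio 0.3482 to 0.5885.

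With 3 libraries a group, of which 1 stood apart, the 95% intervals of HLA-C, HLA-E, B2M, TAP1 and NLRC5 spanned both signs. Those of CD274, HLA-B (lower end 0.0012) and TAPBP (upper end -0.0017) did not, and of these only CD274 passed the adjusted test. Groups of 3 were too small for a test of single outlying libraries, and there was no other contrast to compare.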
